A study of Mus musculus with 39 samples.

Results

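The 10 immediate early genes described here, of 24421 genes in the deposited RNA-seq tables, were taken by name: Arc, Fos, Fosb, Junb, Egr1, Egr3, Egr4, Npas4, Nr4a1 and Ier2. All 10 were listed and passed the filter on low values in each batch. For open chromatin, the peaks with a summit within 50 kb of their start sites were taken from 6 ATAC-seq lists, which after merging gave 162 of 170178 regions. The study compared FANS (fluorescence-activated nuclei sorting) with INTACT (affinity capture of tagged nuclei on beads) for sfGFP+ nuclei of the mouse neocortex. Every library came from mice aged 13 to 16 weeks of 1 line, ArccreERT2 (TG/WT), with 1 (M/WT) or both (M/M) copies of R26CAG-Sun1-sfGFP-Myc, which received tamoxifen 5 h before a social interaction test and were killed on day 3. No library analysed here came from unstimulated or untagged mice. The batches differed in sex-linked RNA: Xist had 84341 to 155314 normalised counts and Ddx3y, which is Y-linked, 0 in batch 1, against 4.47 to 49.4 and 422 to 685 in batches 2 and 3. Batch, sex and animal cannot be told apart between batch 1 and the others. RNA-seq used 10000 nuclei per library in 3 batches of distinct biological sources, with 4 FANS and 4 INTACT libraries in batch 1, 7 and 4 in batch 2, and 7 and 5 in batch 3. ATAC-seq used 50000 nuclei per library according to the labels, with 3 technical replicates per technique of 1 biological source.

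Immediate early genes are transcribed within minutes of neuronal firing from factors already present in the cell, mainly CREB, SRF with its ELK partners, and MEF2, and without new protein synthesis. Most of the 10 encode transcription factors (the AP-1 subunits Fos, Fosb and Junb, the zinc finger factors Egr1, Egr3 and Egr4, the neuron-specific Npas4, and the orphan nuclear receptor Nr4a1). Ier2 is a small nuclear protein, and Arc is an effector that removes AMPA receptors from synapses. In this line the Arc promoter drives the tamoxifen-dependent recombinase, so nuclei were tagged by Arc promoter activity around the test, whereas the RNA was read on day 3. Whether the transgene adds transcribed Arc sequence was not given in the sources used here, and its reads and those of the native gene cannot be told apart.

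Promoter sequences of 6 of the 10 genes were searched, namely Fos, Fosb, Junb, Egr4, Npas4 and Nr4a1. They were taken from the RefSeq table of build GRCm38.p6 (250 bases before and 50 after the start site). The promoters of Arc, Egr1, Egr3 and Ier2 were not searched, so the results on sites do not cover these genes. The binding site of CREB, the CRE, has the letters TGACGTCA, and its half-site is TGACG. On both strands, each of the 6 promoters held at least 1 half-site, against 20.8% of the 32851 promoters of the table. Nr4a1 held 4 half-sites, Fos, Egr4 and Npas4 held 2 each, and Fosb and Junb held 1 each. No match to the whole CRE (1.79% of all promoters), to the AP-1 site TGANTCA (7.81%), to the EGR site GCGTGGGCG (0.612%) or to the CArG box of SRF (1.63%) lay in these windows. Sites farther than 250 bases before the start site were not searched, so the genes may hold such sites outside the windows. The letters TATAAA (13.6% of all promoters) were found in Fos, 33 bases before the start site, and in Junb, where they began at the annotated start site. The 4 promoters with 2 or more half-sites are shown with half-sites (TGACG, or CGTCA on the other strand) and TATAAA in capitals, as they face the start site.
Fos promoter, chr12:85473640-85473939, plus strand: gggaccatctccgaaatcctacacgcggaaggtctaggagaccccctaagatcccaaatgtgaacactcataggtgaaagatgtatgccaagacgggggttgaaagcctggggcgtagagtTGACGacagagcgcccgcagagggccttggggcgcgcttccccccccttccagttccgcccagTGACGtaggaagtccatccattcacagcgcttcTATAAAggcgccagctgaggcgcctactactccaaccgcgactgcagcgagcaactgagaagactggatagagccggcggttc
Egr4 promoter, chr6:85513540-85513839, minus strand: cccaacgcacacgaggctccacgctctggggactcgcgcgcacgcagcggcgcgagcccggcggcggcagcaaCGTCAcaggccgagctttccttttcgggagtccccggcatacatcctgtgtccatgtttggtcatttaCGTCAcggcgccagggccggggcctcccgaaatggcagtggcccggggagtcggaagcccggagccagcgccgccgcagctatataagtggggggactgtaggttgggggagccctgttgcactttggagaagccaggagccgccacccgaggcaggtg
Npas4 promoter, chr19:4989922-4990221, minus strand: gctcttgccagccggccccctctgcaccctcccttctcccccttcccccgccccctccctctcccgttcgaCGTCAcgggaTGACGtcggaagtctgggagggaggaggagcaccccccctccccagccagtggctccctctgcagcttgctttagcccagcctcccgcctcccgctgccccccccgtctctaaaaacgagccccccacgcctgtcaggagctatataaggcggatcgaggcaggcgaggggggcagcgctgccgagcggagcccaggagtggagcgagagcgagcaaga
Nr4a1 promoter, chr15:101266596-101266895, plus strand: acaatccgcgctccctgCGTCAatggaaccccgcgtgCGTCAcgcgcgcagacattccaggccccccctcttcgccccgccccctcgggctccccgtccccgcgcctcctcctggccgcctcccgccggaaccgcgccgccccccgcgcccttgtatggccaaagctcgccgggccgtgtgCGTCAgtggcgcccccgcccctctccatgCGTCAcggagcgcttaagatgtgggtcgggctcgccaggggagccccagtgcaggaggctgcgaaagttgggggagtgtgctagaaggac

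A further 3 distal peaks held by all 6 lists are shown likewise, since they were the highest around Fos and Nr4a1, as 300 bases around the summit read from the plus strand of GRCm38.p6. They held 3, 1 and 2 half-sites, against 12.6% of 63523 distal regions of the 6 lists with any half-site, and the peak 37.6 kb upstream of Fos also held the letters TATAAA (18.1% of distal regions). No match to the CRE, the AP-1 site, the EGR site or the CArG box lay in these windows, against 0.452%, 21.6%, 0.170% and 1.77% of the distal regions.
Fos, 18.5 kb upstream, chr12:85455239-85455538: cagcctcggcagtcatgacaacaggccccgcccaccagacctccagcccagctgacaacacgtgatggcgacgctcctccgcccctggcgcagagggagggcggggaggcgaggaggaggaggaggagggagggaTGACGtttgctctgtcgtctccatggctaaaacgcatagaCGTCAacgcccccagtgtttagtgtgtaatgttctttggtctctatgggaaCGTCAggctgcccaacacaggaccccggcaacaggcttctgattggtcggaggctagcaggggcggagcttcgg
Fos, 37.6 kb upstream, chr12:85436159-85436458: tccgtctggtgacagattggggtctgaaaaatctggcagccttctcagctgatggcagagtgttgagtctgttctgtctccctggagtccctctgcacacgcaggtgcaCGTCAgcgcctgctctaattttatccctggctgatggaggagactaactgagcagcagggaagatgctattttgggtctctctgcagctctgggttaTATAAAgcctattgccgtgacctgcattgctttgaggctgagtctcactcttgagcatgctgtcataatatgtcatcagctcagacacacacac
Nr4a1, 20.4 kb upstream, chr15:101246311-101246610: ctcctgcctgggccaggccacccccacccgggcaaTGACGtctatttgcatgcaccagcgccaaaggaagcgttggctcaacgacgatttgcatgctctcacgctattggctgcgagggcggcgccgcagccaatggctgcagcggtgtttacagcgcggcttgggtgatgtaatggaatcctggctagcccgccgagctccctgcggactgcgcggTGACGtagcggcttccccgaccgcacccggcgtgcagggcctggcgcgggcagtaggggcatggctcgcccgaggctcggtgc

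Depth was 4205665 to 11028713 reads on genes per library after removal of duplicates. In batch 1 the INTACT libraries were deeper (8621143 to 11028713 reads) than the FANS libraries (4853224 to 6066759), and their share of reads outside gene features was lower (73.6 to 75.3% against 81.9 to 84.3%). All 10 markers of excitatory neurons were above 0 in each batch and technique, and their summed normalised counts were 10374 to 10952 in INTACT and 11053 to 11205 in FANS in batch 1. The sums of astrocyte and oligodendrocyte markers were higher in INTACT there, with 7895 to 8108 against 6331 to 7087 and with 10040 to 10593 against 6236 to 7736, while those of microglia and vascular cells overlapped. The part of these differences in the results on the 10 genes was not tested.

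In the mm10 annotation none of the genes overlapped another curated gene. Arc (chr15:74669081-74672570, minus strand, 3 exons) and Nr4a1 (chr15:101266846-101274795, plus, 7 exons) lie on chromosome 15, and Junb (chr8:84976909-84978748, minus) and Ier2 (chr8:84661331-84662852, minus) are single-exon genes of chromosome 8. The others are Fos (chr12:85473890-85477274, plus, 4 exons), Fosb (chr7:19302696-19310045, minus, 4 exons), Egr1 (chr18:34861207-34864956, plus, 2 exons), Egr3 (chr14:70077317-70082613, plus, 4 exons), Egr4 (chr6:85511121-85513589, minus, 2 exons) and Npas4 (chr19:4984354-4989971, minus, 8 exons).

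Levels of different genes were compared per length, as CPM (the reads of a gene as a share of all gene reads of its library, scaled to a common total) divided by the kb of exon. Arc was the highest of the 10 in batches 1 and 2, with a median in batch 1 of 64.1 for FANS (range 59.8 to 68.5) and 74.97 for INTACT (72.9 to 78.3), and in batch 2 of 70.9 (61.2 to 72.2) and 66.8 (64.2 to 69.7). That placed Arc between the 98.0 and 98.7 percentile of all genes by length-scaled level in batch 1. Nr4a1, Egr1, Egr3 and Npas4 followed in this order in all 4 groups of batches 1 and 2, with FANS medians in batch 1 of 52.6, 29.6, 21.4 and 17.6. Junb (9.80), Fos (7.25), Egr4 (3.80), Ier2 (2.08) and Fosb (1.80) came next. Ranges of neighbours did not overlap from Arc down to Junb in batch 1, whereas Junb and Fos, and Ier2 and Fosb, overlapped in the FANS libraries. Thus the 10 genes spanned more than an order of magnitude in the same nuclei, and Arc, whose promoter tagged the nuclei, led the order.

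In batch 3 this order was different. In the FANS libraries Egr1 (median 20.4), Nr4a1 (18.6) and Arc (17.2) led, and adjacent ranges among these 3 genes overlapped. In the INTACT libraries Nr4a1 (21.0), Egr1 (18.5) and Arc (17.003) led, again with adjacent ranges overlapping. Fos had a median of 1.32 in FANS and 1.15 in INTACT, which placed it below Ier2 (1.36 and 1.66), and Fosb was last with 0.345 and 0.268. The order of the 10 genes was the same when the length of the longest transcript was used.

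**Figure D1:**
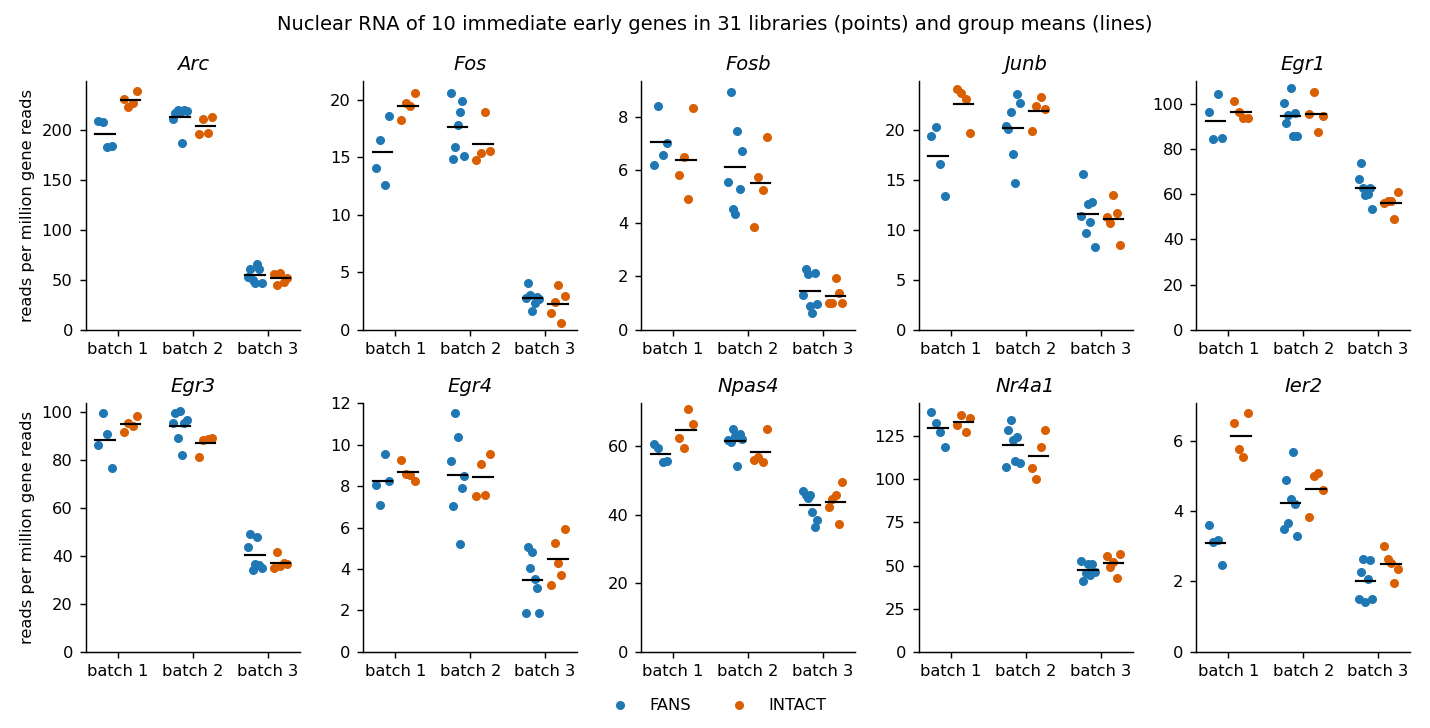
Level of each gene in CPM of gene reads, named in full on the y axis, which starts at 0, in the 31 libraries by batch (x axis) and technique (blue FANS, orange INTACT), with group means as lines. In batch 3 the Arc libraries sit between 45.1 and 66.1, all below the range of 183 to 240 in batch 1, and the techniques overlap for most genes within a batch.

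The comparison of the techniques asked whether the way of isolating nuclei changes the activity program that is read from them. It was made within each batch with limma on log2(normalised count + 1), where a call needed both a change of at least 1.5-fold and a p-value under 0.05 after Benjamini-Hochberg adjustment over all genes, and log2 fold changes are INTACT minus FANS. Of the 10 genes, 1 was called, Ier2 in batch 1, and it was higher in INTACT-nuclei, as were 4.03% of all genes. Without the fold threshold, Arc, Junb and Fos also passed in batch 1, all higher in INTACT-nuclei, beside 18.6% of all genes higher and 17.5% lower. In batches 2 and 3 none of the 10 was called in either direction. The libraries of a batch share 1 biological source, so the p-values measure the spread between these libraries, which may be technical.

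Ier2 had 27.0, 23.3, 24.5 and 18.3 normalised counts in the 4 FANS libraries of batch 1 and 48.5, 42.1, 40.5 and 49.6 in the 4 INTACT libraries. Every INTACT library was above every FANS library. The log2 fold change was 0.93 ± 0.20 (SE, n = 4 and 4; limma, adjusted p = 0.000746), on 12 to 21 reads per FANS and 55 to 75 per INTACT library. Of all 15114 genes tested, 4.03% were called higher in INTACT-nuclei in this batch and 3.94% lower, the latter beside 0 of the 10. In batch 2 Ier2 differed by 0.15 (95% CI -0.25 to 0.55) and in batch 3 by 0.33 (-0.20 to 0.86), and the groups of libraries overlapped. When batch 1 was scaled to all uniquely aligned reads instead, the median log2 fold change of all genes was 0.64 in place of 0.01, and 9 of the 10 genes were called higher, as were 8166 of all genes, so the values given here are relative to the other genes.

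Arc had 1569, 1550, 1408 and 1365 normalised counts in the FANS libraries of batch 1 and 1722, 1630, 1662 and 1747 in the INTACT libraries. The groups did not overlap, but the difference was small, with a log2 fold change of 0.20 ± 0.052 (SE; limma, adjusted p = 0.00329) and a 95% CI of 0.095 to 0.31, below 1.5-fold. Arc and Ier2 were the 2 genes with no overlap, both higher in INTACT, against 17.1% of all genes higher without overlap and 16.5% lower. In batch 2 Arc ranged from 1190 to 1372 (median 1352) in FANS and from 1235 to 1327 (median 1273) in INTACT, and in batch 3 from 241 to 334 (median 267) and from 229 to 293 (median 268). The technique effect on Arc was -0.05 (95% CI -0.16 to 0.058) in batch 2 and -0.07 (-0.25 to 0.11) in batch 3. It was lower in batch 3 than in batch 1 by a difference of -0.27 ± 0.10 (SE; limma interaction, adjusted p = 0.0493), and 23.3% of all genes passed this test. Between batches 2 and 1 the difference was -0.25 (adjusted p = 0.153), where 0 of the 10 passed beside 6.30% of all genes, and between batches 3 and 2 it was -0.02 (adjusted p = 0.953).

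Of the AP-1 subunits, Junb had 145, 150.8, 128 and 99.3 normalised counts in FANS and 180, 174, 169 and 143 in INTACT in batch 1. Fos had 105, 122.6, 96.8 and 138 in FANS and 136, 144, 142 and 150 in INTACT. For both genes the lowest INTACT library lay inside the FANS range. The log2 fold change was 0.36 ± 0.12 (SE; limma, adjusted p = 0.0225) for Junb and 0.32 ± 0.12 (adjusted p = 0.0346) for Fos, and each lost significance when single libraries were left out (adjusted p up to 0.0935 and 0.115). In all, 4 of the 10 genes were higher at an adjusted p-value under 0.05 at any fold, against 18.6% of all genes, and 0 lower, against 17.5%. At an unadjusted p under 0.05 the counts were again 4 and 0, against 22.9% and 21.6%. Fosb, which is induced together with Fos, had 46.3, 62.5, 50.4 and 52.0 in FANS and 43.3, 47.4, 35.9 and 60.8 in INTACT, a log2 fold change of -0.19 (95% CI -0.56 to 0.19; limma, adjusted p = 0.457).

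The Egr genes, Npas4 and Nr4a1 overlapped between the techniques in batch 1. Egr1 was at 697 ± 84.4 (SD, n = 4) in FANS and 709 ± 32.6 (n = 4) in INTACT, with a 95% CI of the log2 fold change of -0.11 to 0.17. Nr4a1 was at 973 ± 67.4 and 976 ± 32.6 (95% CI -0.11 to 0.12), and Egr3 was at 664 ± 74.0 and 697 ± 15.3 (-0.06 to 0.21). For these 3 genes and for Npas4 (95% CI -0.01 to 0.27), which is induced by calcium influx in neurons, the intervals lay within 1.5-fold in either direction. Egr4 was lower in abundance and its interval was wider (-0.27 to 0.36), though it also lay within 1.5-fold in either direction. Across batch 1 the median log2 fold change of the 10 genes was 0.10, beside 0.01 for all genes.

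In batch 2 limma called 0 of the 10 genes at adjusted p-values from 0.439 upwards, and 0 had an unadjusted p under 0.05, beside 0.0941% of all genes called higher and 0.0336% lower, and 8.66% and 6.58% at an unadjusted p under 0.05. The libraries of the techniques overlapped for all 10 genes, whereas 1.59% of all genes were higher and 1.40% lower without overlap. In batch 3 the count was again 0, at adjusted p-values from 0.373 (Egr1, log2 fold change -0.15, 95% CI -0.30 to 0.0017), with 0 at an unadjusted p under 0.05, beside 0.0139% of all genes higher and 0.346% lower, and 7.29% and 6.46% at an unadjusted p under 0.05. All 10 overlapped again, beside 0.997% of all genes higher and 0.589% lower without overlap. edgeR and DESeq2 on the recovered reads also called 0 in both batches. In batch 2 the intervals of all 10 genes lay within 1.5-fold in either direction. In batch 3 this held for Arc, Junb, Egr1, Egr3, Npas4 and Nr4a1, whereas the interval of Fos reached from -1.08 to 0.24 on 3 to 23 reads per library, and those of Fosb, Egr4 and Ier2 also passed 1.5-fold, so that larger changes of these 4 genes were not excluded.

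**Figure D2:**
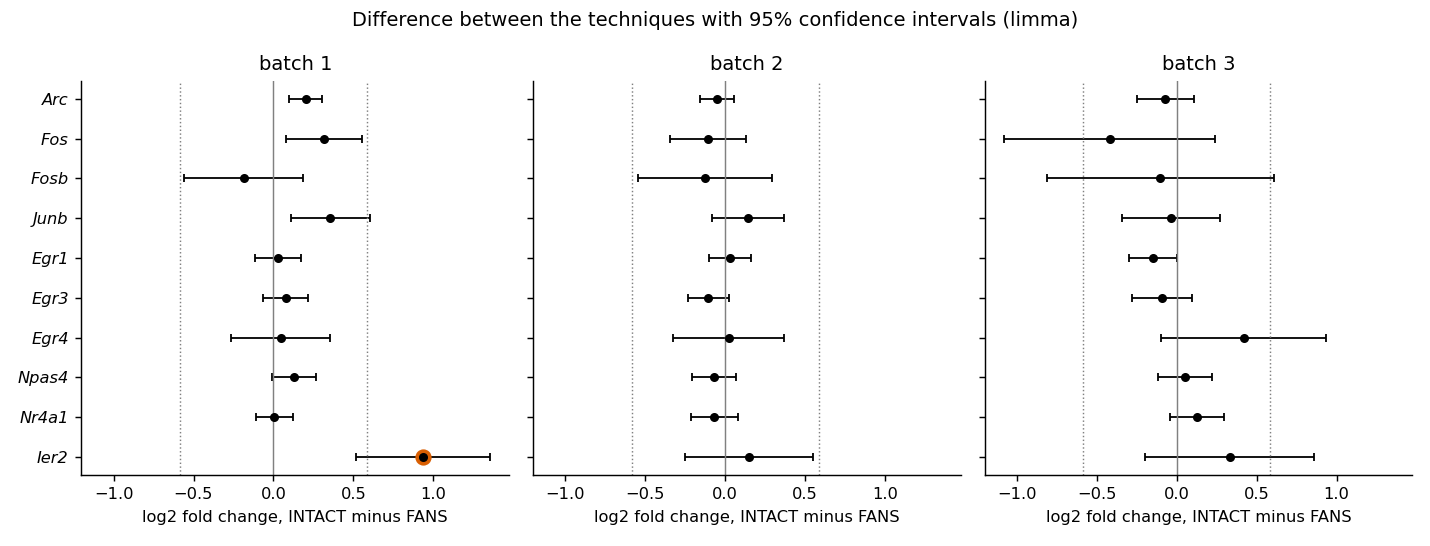
Log2 fold change, INTACT minus FANS (x axis), of each gene (rows) in the 3 batches, with 95% confidence intervals from limma, 0 as a solid line and 1.5-fold as dotted lines. The orange point marks Ier2 in batch 1 (0.93), the gene called at adjusted p under 0.05 and 1.5-fold.

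Of 38 other immediate early genes, 35 were tested in batch 1, 1 was called higher and 0 lower, beside 4.03% and 3.94% of all genes, and their median log2 fold change was 0.30 beside 0.01 for all genes. Without the fold threshold 13 of the 35 were higher and 3 lower, beside 18.6% and 17.5% of all genes. The called gene was Cyr61, a secreted matrix protein, at 42.3 to 64.2 normalised counts in FANS and 77.3 to 100.3 in INTACT (log2 fold change 0.82 ± 0.15 SE; limma, adjusted p = 0.000157). In batch 2, 0 of 34 passed both thresholds, beside 0.0941% of all genes higher and 0.0336% lower. At any fold 0 were higher and 2 lower, beside 0.834% and 0.309% of all genes, and at an unadjusted p under 0.05 it was 2 and 4, beside 8.66% and 6.58%, with a median of 0.05. In batch 3, at any fold 0 of 32 were higher and 2 lower, beside 1.18% and 0.519% of all genes. With the fold threshold 0 were called higher and 1 lower, beside 0.0139% and 0.346%. The called gene was Jun, the AP-1 partner of Fos, at 57.3 to 92.4 in FANS and 34.5 to 51.2 in INTACT (-0.64 ± 0.14 SE; adjusted p = 0.0126). In batch 1 Jun went the other way (0.50 ± 0.11 SE; adjusted p = 0.000597), and the effect in batch 3 differed from that in batch 1 (limma interaction -1.14, adjusted p = 1.9e-05).

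The 22 upstream regulators, which are kinases, coactivators and transcription factors that act on these genes, were all tested. In batch 1, 0 were called higher and 1 lower, beside 4.03% and 3.94% of all genes, and without the fold threshold 1 was higher and 11 lower, beside 18.6% and 17.5%, with a median of -0.17. The called gene was Elk3, an SRF partner that represses transcription, at 292 to 327 normalised counts in FANS and 187 to 211 in INTACT (log2 fold change -0.67 ± 0.081 SE; limma, adjusted p = 4.6e-07). In batches 2 and 3, 0 of 22 were called, beside 0.0941% of all genes higher and 0.0336% lower in batch 2 and 0.0139% and 0.346% in batch 3, and the medians were -0.05 and 0.01. At an unadjusted p under 0.05, 0 were higher and 2 lower in batch 2, beside 8.66% and 6.58% of all genes, and 1 and 1 in batch 3, beside 7.29% and 6.46%.

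Levels across batches were set side by side as CPM of gene reads, without a test, since each table was scaled on its own. All 10 genes had lower means in batch 3 than in batches 1 and 2 in both techniques. Arc had 183 to 210 CPM in the FANS libraries of batch 1, 187 to 221 in those of batch 2 and 46.6 to 66.1 in those of batch 3. In INTACT it had 223 to 240, 197 to 213 and 45.1 to 56.9. No library of batch 3 reached a library of the other batches, and the mean was 3.58 to 4.48 times lower.

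Fos was the member with the widest gap. It had means of 15.4 CPM in batch 1, 17.6 in batch 2 and 2.74 in batch 3 in FANS, and of 19.5, 16.2 and 2.25 in INTACT, which was 5.63 to 8.64 times lower in batch 3. Ranked from the largest decrease, Fos stood at place 4 of 14747 genes (FANS) and 4 of 14805 (INTACT) against batch 1, and at places 9 and 12 against batch 2. Fosb was 4.16 to 5.05 times lower, and the highest value in batch 3 was again below the lowest of the others.

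Nr4a1 was 2.21 to 2.74 times lower, Egr3 2.19 to 2.55 times and Egr4 1.88 to 2.46 times. The smallest differences were those of Npas4 (1.33 to 1.48 times), Egr1 (1.47 to 1.72), Junb (1.504 to 2.04) and Ier2 (1.55 to 2.46). Only for Junb (both FANS comparisons) and Ier2 (FANS against batch 1) did the libraries of batch 3 overlap with the others. Hence 8 of the 10 genes in FANS and 10 of 10 in INTACT were below every library of batch 1, beside 6.41% and 24.3% of all genes. Against batch 2 it was 9 and 10 of the 10, beside 4.90% and 13.5%. Levels at most at 1/2 were found for 6 (FANS) and 7 (INTACT) of the 10 against batch 1, beside 2.13% and 3.61%, and for 7 and 5 against batch 2, beside 2.34% and 3.07%. Between batches 2 and 1, by contrast, 0 of the 10 were below every earlier library in FANS and 3 in INTACT, beside 2.72% and 14.3%, and 0 were at most at 1/2, beside 0.243% and 0.615%.

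Ratios within a library, which do not depend on scaling, showed the same unequal shift. Per 100 reads of Arc there were 39.3 to 57.2 reads of Egr1 in batch 1 and 39.2 to 49.9 in batch 2, but 90.9 to 128.6 in batch 3. For Npas4 the ranges were 26.7 to 31.1, 26.9 to 30.5 and 60.2 to 98.7, and for Nr4a1 55.9 to 69.7, 47.4 to 60.8 and 66.6 to 109.4. Fos went the other way, with 6.72 to 10.1, 6.83 to 10.1 and 1.23 to 6.85 reads per 100 of Arc, and the ranges of batch 3 overlapped narrowly with those of both other batches. Thus Arc and Fos were low in batch 3 also relative to Egr1 and Npas4 of the same nuclei.

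Set against a list of 10 excitatory neuron markers (such as Slc17a7, the vesicular glutamate transporter), the 10 genes together had, in batch 1, 38.2 to 43.0 reads per 100 marker reads for FANS and 46.4 to 48.5 for INTACT. In batch 2 the ranges were 36.8 to 42.7 and 36.8 to 41.3, and in batch 3 they were 14.1 to 16.4 and 14.2 to 16.6. The excitatory marker sum itself was 1437 to 1498 CPM in FANS of batch 1, 1530 to 1675 in batch 2 and 1629 to 1825 in batch 3. In bulk libraries fewer nuclei with a transcript and less transcript per nucleus cannot be told apart. The oligodendrocyte marker sum was also lower in batch 3, at 337 to 474 CPM in FANS against 810 to 1043 in batch 1 and 1110 to 2244 in batch 2. In INTACT it was 405 to 516 CPM, against 1377 to 1438 and 2151 to 2630. The other marker sums in FANS were, for batches 1, 2 and 3 in turn, 43.9 to 61.2, 68.3 to 104.0 and 37.7 to 64.4 CPM for inhibitory neurons, and 823 to 955, 803 to 1090 and 1082 to 1469 CPM for astrocytes. For microglia they were 38.3 to 51.7, 45.9 to 61.7 and 45.9 to 53.2 CPM, and for vascular cells 10.4 to 15.9, 16.6 to 19.7 and 11.0 to 14.7 CPM. In INTACT the inhibitory sum was lower in batch 3 without overlap, at 35.3 to 48.6 CPM against 58.5 to 67.2 in batch 1 and 75.7 to 89.2 in batch 2. The astrocyte sum there was 1083 to 1105, 984.0 to 1193 and 1171 to 1312 CPM, the microglial sum 41.1 to 46.8, 42.4 to 55.3 and 46.0 to 53.0, and the vascular sum 14.0 to 17.3, 15.4 to 19.1 and 11.7 to 15.4. The share of reads outside gene features was 82.6 to 87.5% in FANS of batch 3, against 81.9 to 84.3% in batch 1 and 81.9 to 84.0% in batch 2. In INTACT it was 84.4 to 85.5%, against 73.6 to 75.3% and 79.8 to 81.4%, so batch 3 stood above both. The study described the RNA integrity of batch 1 as higher than that of batches 2 and 3. The part of these differences in the lower levels of the 10 genes was not tested. The batches are 3 biological sources, and animal, RNA quality, handling and batch cannot be told apart.

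**Figure D3:**
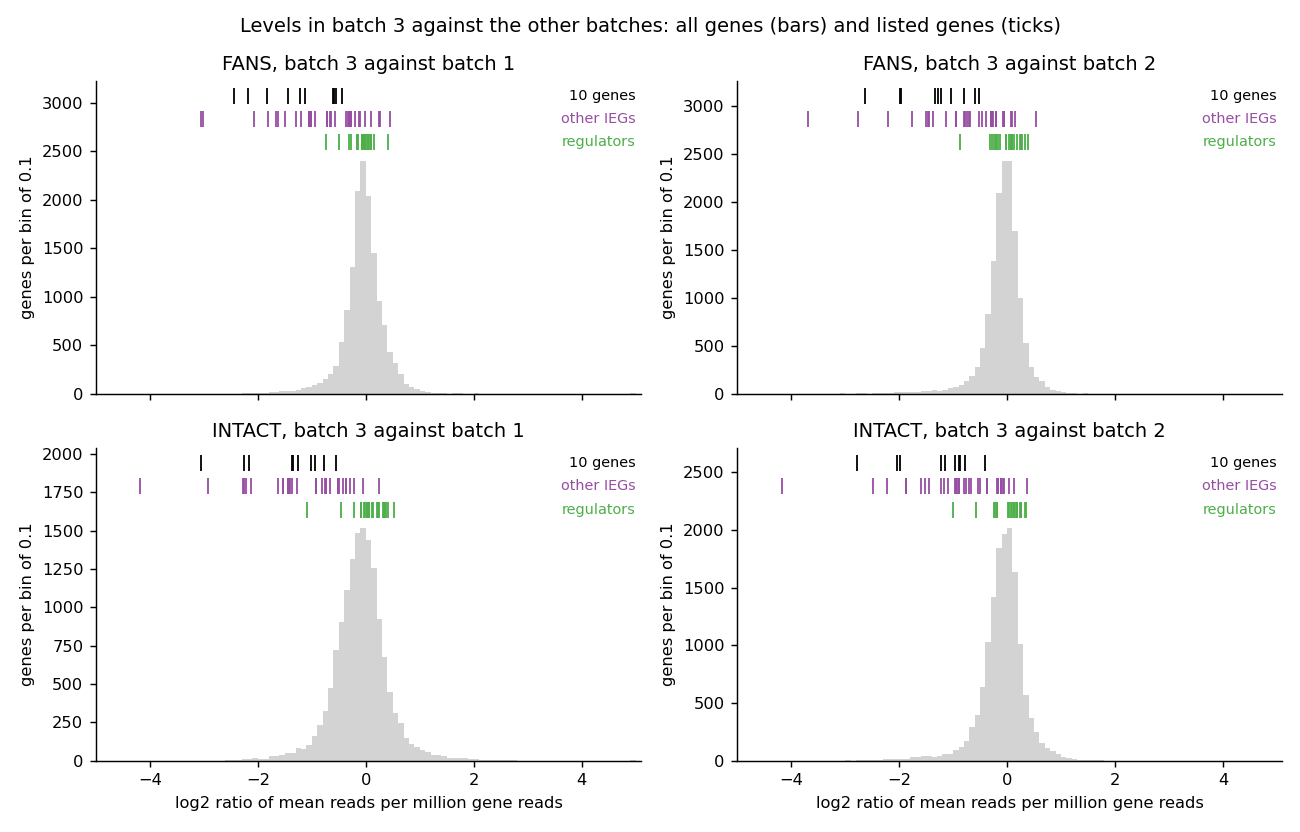
Number of genes (y axis) by log2 ratio of mean CPM of gene reads (x axis) in batch 3 against batches 1 and 2, for FANS (top) and INTACT (bottom), with ticks for the 10 genes (black), 38 other immediate early genes (purple) and 22 upstream regulators (green). The black ticks lie below 0 in each panel, with Fos farthest left of them, while all genes centre at medians of -0.09 to -0.04.

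Most other immediate early genes also had lower means in batch 3. Of the 34 with a mean of at least 1 CPM in either batch, 30 had a lower mean in batch 3 than in batch 1 in FANS and 33 in INTACT, with medians of -0.65 and -0.93 of the log2 ratio (0.1 CPM added to both) beside -0.04 and -0.09 for all genes. A gene could pass this filter through the earlier batch alone, which by itself favours lower means in batch 3. The same filter was used for all genes. Their levels were at most at 1/2 for 13 and 16 of them, beside 2.13% and 3.61% of all genes. Against batch 2 the mean was lower for 29 of 33 in FANS and 31 of 34 in INTACT, with medians of -0.68 and -0.78 beside -0.04 and -0.05 for all genes. Above every library of batch 2 was 1 gene in each technique, beside 2.81% and 8.30% of all genes, namely the zinc finger factor Klf6 in both (60.7 to 74.8 CPM in FANS of batch 2 and 82.5 to 111.4 in batch 3, 66.0 to 76.6 and 84.0 to 96.6 in INTACT). Examples of lower genes, chosen after their values were seen, were Sik1, a kinase that restrains CREB coactivators (11.7 to 17.7 CPM in FANS of batch 1 and 1.43 to 2.28 in batch 3), Nr4a3, a relative of Nr4a1 (48.4 to 61.8 and 10.1 to 21.2), and the clock gene Per1 (131 to 148 and 54.7 to 65.4). The 22 upstream regulators had medians against batch 1 of -0.02 in FANS and 0.09 in INTACT and went both ways. Below every library of batch 1 were 4 in FANS and 4 in INTACT, beside 6.41% and 24.3% of all genes, and above every library were 1 and 7, beside 5.61% and 15.2%. Against batch 2 their medians were 0.05 and 0.13. Below every library of batch 2 were 2 in FANS and 3 in INTACT, beside 4.90% and 13.5% of all genes. Above every library were 5 and 7, beside 2.81% and 8.30%. Srf, which binds the CArG box, was at 24.7 to 36.1 CPM in FANS of batch 1 and 16.5 to 22.9 in batch 3, and the kinase Mapk3 at 11.3 to 12.6 and 4.98 to 9.26, whereas the transcription factor Mef2c was at 483 to 587 and 642 to 832. These 3 were chosen after their values were seen, and their levels in batch 2 are not given here.

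Within batches, library-to-library variation of the 10 genes was described by Pearson correlation of log2 values over the 31 libraries, after the mean of each batch and technique was taken off, among 14332 genes. The genes most like Arc were Tmem259 (r = 0.77), Hras (0.70), Tmem74 (0.70), Rhob (0.68) and Dctn3 (0.68), and the median gene had r = 0.0044. For Fos they were Pet100 (0.69), Paqr9 (0.66), Gjb1 (0.65), Phyhip (0.64) and 1110032A03Rik (0.63). None of the 10 genes was among them. Arc and Junb had r = 0.47, Arc and Egr3 0.44, Egr1 and Egr4 0.48, and Arc and Fos 0.18. These libraries share nuclei, depth and counting noise, and the values are descriptions.

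Open chromatin was found at the promoter of all 10 genes in all 6 ATAC-seq lists, as a peak with its summit within 1 kb of the start site, beside 51.5% of 26180 curated genes. Height is given as the percentile of the fold enrichment within a list, since read depth is unknown for these libraries. Fos (81.1 to 87.7), Egr1 (78.4 to 89.4) and Egr4 (78.1 to 86.5) were near the median promoter peak of all genes, which stood at 80.5 to 85.8 in the 6 lists, and Nr4a1 (68.0 to 81.1) was below it in each list. Fosb (57.2 to 71.6), Junb (47.7 to 64.7) and Ier2 (42.1 to 61.5) were lower, and Arc (36.0 to 50.2), Npas4 (41.9 to 54.2) and Egr3 (19.0 to 48.4) were lowest. Thus Arc, the most abundant RNA of the 10 in batches 1 and 2, had 1 of the lowest promoter peaks by fold enrichment. By the -log10 q-value of the peak caller its promoter peak was instead the second highest of the 10 in all 6 lists, after Egr1. Its -log10 q-value was 273, 351 and 294 in FANS and 98.2, 79.0 and 183 in INTACT, against 504, 580 and 559 and 232, 201 and 329 for Egr1.

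**Figure D4:**
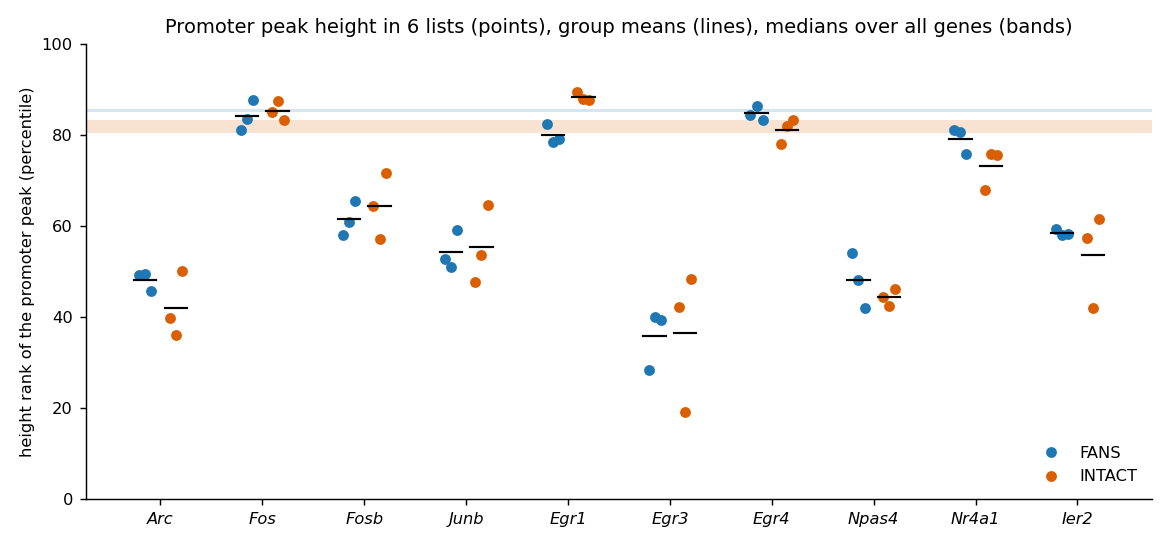
Height rank of the promoter peak (y axis, percentile of fold enrichment within a list) of each gene (x axis) in the 3 FANS (blue) and 3 INTACT (orange) lists, with group means as lines and the range of the median over all genes as bands. The Egr1 points of INTACT lie above those of FANS, a difference that 3 lists against 3 cannot bring below an exact p of 0.1, and Arc, Npas4 and Egr3 lie between 19.0 and 54.2.

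Promoter height was compared between the techniques with a two-sided exact permutation test of 3 lists against 3, whose smallest p is 0.1, so no difference could pass 0.05. The ranks come from lists of unequal length, and the part of length in their differences was not tested. Egr1 had ranks of 82.4, 78.4 and 79.2 in FANS and 89.4, 87.9 and 87.6 in INTACT (exact p = 0.1), and each INTACT list was above each FANS list, as for 6.66% of 13472 genes. Egr4 had 84.5, 86.5 and 83.4 in FANS and 78.1, 82.0 and 83.4 in INTACT, and Nr4a1 had 81.1, 80.5 and 75.8 against 68.0, 75.7 and 75.6 (exact p = 0.1 for both). Both were lower in INTACT without overlap, as were 36.8% of genes, though for each the nearest values of the techniques were almost equal. The other 7 promoters overlapped, with exact p from 0.4 to 1.

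The windows of 50 kb on each side held 139, 155 and 145 peaks of the 10 genes in the FANS lists and 118, 109 and 125 in the INTACT lists. Each INTACT list was below each FANS list. The list sizes were 123596, 128910 and 130088 peaks in FANS and 113224, 99514 and 123895 in INTACT, so only the shortest FANS and the longest INTACT list overlapped in order. The part of list size in the peak numbers was not tested. These windows held 0.111 to 0.120% of all peaks in FANS and 0.101 to 0.1095% in INTACT. By gene, Junb, Egr4, Npas4, Nr4a1 and Ier2 had fewer peaks in each INTACT list than in each FANS list, 5 of 10, beside 34.5% of all genes, and 0 had more, beside 3.71%. Arc had 20 to 22 peaks per list, Nr4a1 15 to 22 and Junb 15 to 19, at or above the 99.5, 98.5 and 97.8 percentile of genes. Fos had 6 to 8 peaks, between the 48.8 and 73.6 percentile.

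Of the 162 merged regions, 102 (63.0%) were held by all 6 lists, beside 45.0% of all merged regions, and 19 (11.7%) by 1 list, beside 17.5%. All 3 FANS lists and no INTACT list held 11 (6.79%, beside 5.01%), and all 3 INTACT lists and no FANS list held 0 (beside 1.40%). The summit lay in the own promoter for 12 regions, in the promoter of another gene for 29, in an exon for 12, in an intron for 28 and between genes for 81. Of the 102 shared regions, 45 (44.1%) were lower in rank in each INTACT list than in each FANS list and 7 (6.86%) were higher, beside 25.7% and 12.5% of all shared regions.

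**Figure D5:**
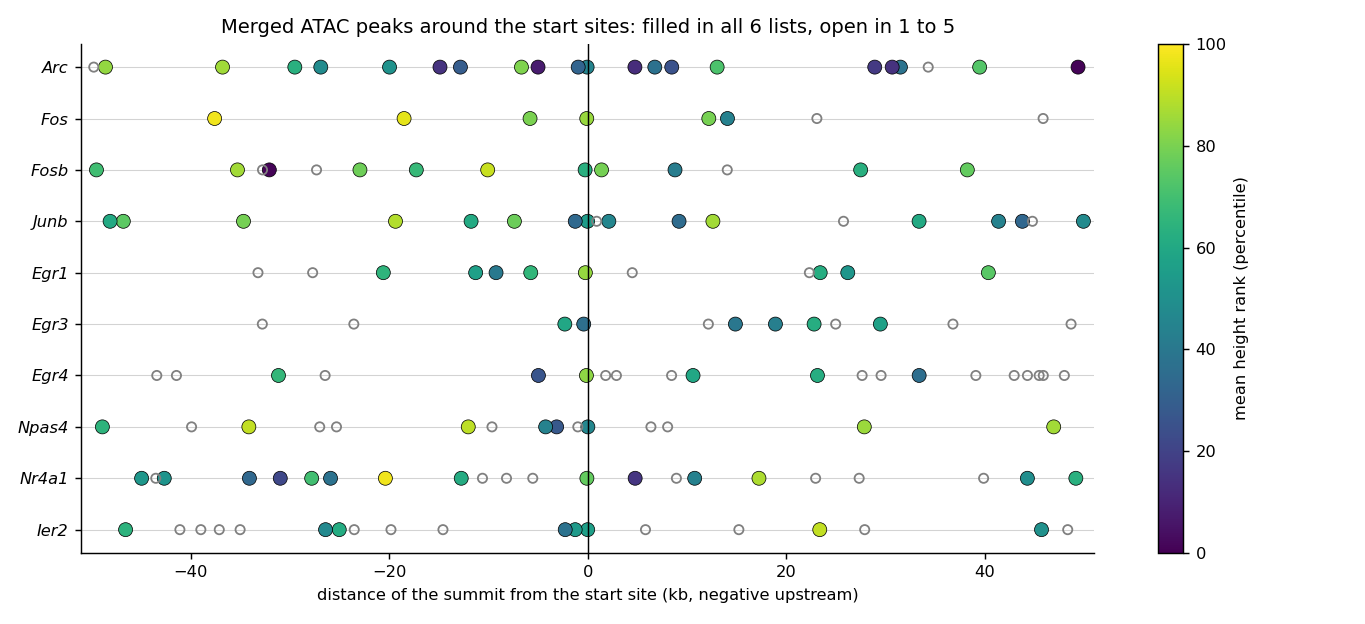
Merged ATAC-seq regions by the distance of their summit from the start site (x axis, kb, negative upstream) for each gene (rows). Filled points are held by all 6 lists and coloured by mean height rank, and open points by 1 to 5 lists. Of the 22 regions around Arc, 20 are filled, and the highest points around Fos lie 18.5 and 37.6 kb upstream.

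Around Arc, 20 of 22 regions were held by all 6 lists. An enhancer several kilobases upstream of Arc is known to respond to synaptic activity. A region at chr15:74678813-74679687, 6.68 kb upstream, had ranks of 77.7 to 78.8 in FANS and 81.1 to 86.9 in INTACT, above the Arc promoter itself in each list. It was 1 of 2 regions around Arc with no overlap and higher rank in INTACT, the other being 6.75 kb downstream of the start site (16.4 to 26.6 against 48.3 to 59.5), while 7 were lower. These were 10% and 35% of the 20 shared regions around Arc, beside 12.5% higher and 25.7% lower of all shared regions. Whether the upstream region is the known enhancer was not tested.

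Around Fos, which is known to be controlled by several distal enhancers, 6 of 8 regions were held by all 6 lists, and none of the 8 lay in another gene. The regions 37.6 kb upstream (chr12:85435965-85436697) and 18.5 kb upstream (chr12:85454953-85455974), whose central sequences are printed above, had ranks of 96.6 to 98.9 and 94.5 to 98.5 over the 6 lists and overlapped between the techniques. Both stood above the Fos promoter. Regions 5.82 kb upstream and 14.1 kb downstream were lower in each INTACT list, 2 of the 6 shared regions, beside 25.7% of all shared regions. Around Nr4a1, the region 20.4 kb upstream had ranks of 96.1 to 99.2, against 68.0 to 81.1 at the promoter. Egr4 had the smallest shared part, with 6 of 20 regions in all 6 lists, and 7 of its regions lay in exons of Cct7, Fbxo41 or Egr4 itself.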

How the data were processed

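Nuclear RNA was measured in 31 libraries (18 FANS, 13 INTACT) of 33 labelled, and open chromatin in 6. FANS replicate 3 and INTACT replicate 5 of batch 2 were not analysed here. RNA values were deposited as normalised read counts, a signal made by the authors by aligning to mm10 with STAR, removing duplicates by molecular identifier, counting unique reads per gene with HTSeq and dividing by DESeq size factors within each batch. Whole reads were recovered from these steps (tolerance 0.02, 100% of the values checked in every library), and summary rows were left out of totals. The highest values of each library were not part of this check. The authors deposited 1 MACS2 peak list per ATAC-seq library, of which the fold enrichment ratio, the −log10 q-value and the summit position were used, while the score and the −log10 p-value of the deposited lists were not. The parameters of peak calling were not given in the sources used here.

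Genes with a mean normalised count of at least 5 were tested with limma 3.58.1 (R 4.3.3) on log2(value + 1), by technique within each batch and, for the difference between batches, by an interaction over the 14332 genes tested in all 3. edgeR 4.0.16 and DESeq2 1.42.0 on recovered reads were alternatives. On simulated data for batch 1 (15114 genes), 55.2% of 1.5-fold and 95.5% of 2-fold changes were recovered, and for batch 3 (14440 genes) 31.3% and 95.5%, for changed genes with a mean normalised count of at least 20. Correlations of same-numbered libraries ran from -0.07 to 0.11, and the numbers were not taken to pair libraries. In batch 3 the same number correlated best for replicates 1, 2 and 5 (0.019, 0.11 and 0.029, against at most 0.017, 0.041 and 0.019 for other numbers). For replicates 3 and 4 it did not, and whether libraries of batch 3 were paired was not settled. Peaks were assigned by summit within 50 kb of a start site (promoter, 1 kb), and ranks are percentiles of fold enrichment within a list. Depth limits RNA precision to counting error at best, and ATAC-seq depth is unknown.

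The 10 genes and the lists of other immediate early genes, upstream regulators and cell type markers were chosen with earlier results of these data known. All 10 genes were named, as were the genes of the other 2 lists called in any batch and the 5 genes most like Arc and Fos. Of the marker lists (10 genes each), 10 excitatory, 8 inhibitory, 10 astrocyte, 10 oligodendrocyte, 5 microglia and 4 vascular markers were tested in batch 1, of which limma called 0, 3, 6, 7, 0 and 2 higher in INTACT-nuclei and 0, 1, 0, 0, 1 and 1 lower, beside 4.03% and 3.94% of all genes. In batch 2 it called 1 of 10 astrocyte and 4 of 10 oligodendrocyte markers higher, beside 0.0941% of all genes, and in batch 3 0 of any list. There, at an unadjusted p under 0.05, 1 of 10 excitatory, 0 of 7 inhibitory, 0 of 10 astrocyte, 3 of 10 oligodendrocyte, 1 of 3 microglia and 0 of 3 vascular markers were higher and 4, 1, 1, 0, 0 and 0 lower, beside 7.29% and 6.46% of all genes.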

Additional observations from a re-analysis of the deposited data

Results flagged for a closer look

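Single libraries stood apart from the rest of their group in 5 of 78 groups looked at, where chance gives about 1 in 20. In batch 2, FANS replicate 6 had 1189.72 normalised counts of Arc, against 1307 to 1372 in the other 6 libraries, and 344.77 of Npas4, against 382 to 399. INTACT replicate 4 of that batch had 404.77 of Npas4, against 347 to 353. INTACT replicate 3 had 118.34 of Fos, against 93.0 to 96.8, and FANS replicate 7 had 104.31 of Cyr61, against 52.4 to 73.2.

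The technique effect differed between batches for 3 of the genes whose technique effect the text gives (limma interaction), where 6.30% of all genes passed for batch 2 against batch 1 and 23.3% for batch 3 against batch 1. Of the 10 genes 0 and 1 passed, of 32 other immediate early genes 4 and 9, and of the 22 upstream regulators 4 and 8. For Arc the difference of batch 3 from batch 1 was -0.27 (adjusted p = 0.0493). For Jun it was -1.14 (adjusted p = 1.9e-05). For Elk3 it was 0.41 for batch 2 (adjusted p = 0.0471) and 0.53 for batch 3 (adjusted p = 0.00151), both against batch 1, in which Elk3 was lower in INTACT-nuclei.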

How the results depend on the processing

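Of 760 alternative values for 58 results, 710 kept direction and side of the threshold. Scaling to all uniquely aligned reads moved the count of genes called higher in batch 1 from 1 to 9 and Fosb there to 0.44, and turned the sign in batch 2 of Arc (0.087), Fos (0.029), Fosb (0.0055), Egr3 (0.033), Npas4 (0.067) and Nr4a1 (0.070). DESeq2 gave -2.3e-05 for Nr4a1 in batch 1 and -0.0080 for Egr4 in batch 2, where edgeR gave -0.010. With −log10 q of at least 5 the mean number of peaks per list was 136 in FANS and 108 in INTACT, and within 20 kb it was 66.3 and 56.3, against 146 and 117. Leaving out 1 library at a time turned signs of small differences, in batch 1 for Egr1 (-0.017 to 0.10), Egr4 (-0.028 to 0.13) and Nr4a1 (-0.041 to 0.040), in batch 2 for Fosb (-0.27 to 0.026), Egr1 (-0.014 to 0.069) and Egr4 (-0.082 to 0.097), and in batch 3 for Fosb (-0.25 to 0.0069) and Junb (-0.11 to 0.058). It did so for the promoter rank of Fos (-0.26 to 3.03), Fosb (-0.71 to 6.51), Junb (-3.60 to 4.86), Egr3 (-5.30 to 9.41) and Ier2 (-8.76 to 0.97). The adjusted p of Arc in batch 1 stayed at or under 0.0182 and that of Ier2 at or under 0.00590. The cause of these changes was not tested.

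Same-numbered libraries were not paired by any label. With a replicate block, 0 calls on the 10 genes changed, Egr4 in batch 2 became -0.060 and Npas4 in batch 3 became -0.017. Over all genes, calls in batch 2 went from 14 higher and 5 lower to 3 and 0, and in batch 3 from 2 and 50 to 29 and 85. Low counts limit Fos, Fosb, Egr4 and Ier2 in batch 3.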
